A study of Mus musculus with 18 samples.

Results

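The 46 genes described here are Myc and 45 genes whose products make ribosomes in the nucleolus: subunits of RNA polymerase I, proteins of the small nucleolar ribonucleoproteins (snoRNPs), factors that process and assemble the small and the large ribosomal subunit, and abundant nucleolar proteins. They were taken by name from a table of 23420 genes, and all 46 were found, had reads in each of the 18 libraries and were among the 10630 genes tested. RNA was sequenced from sorted mouse regulatory T cells (Treg), the CD4 T cells that restrain immune responses. The groups, each of 3 libraries, were effector (activated) and resting cells of the genotype labelled FCre x C1fl/fl, effector and resting cells of FCre x C1fl/+, and effector and resting cells of FCre x C1+/+. They are written fl/fl, fl/+ and +/+ below, and FCre stands in the label of all of them, the +/+ group included. The labels do not spell out FCre, and age, sex and the sorting gates were not stated.

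Myc is a transcription factor that pairs with Max on the E-box sequence CACGTG and raises the output of genes for growth, those of ribosome production among them. RNA polymerase I transcribes the ribosomal RNA precursor, snoRNPs guide its chemical modification, and a long series of factors cuts it and assembles it with ribosomal proteins. T cells induce this programme when their antigen receptor is stimulated. The CBM signalosome, which the study is about, links that receptor to the NF-kB pathway.

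Promoter windows of 250 bases before to 50 bases after the start site, from RefSeq on GRCm38.p6, were matched to 41 of the 46 genes (Myc, Fbl, Rrp12, Bop1 and Npm1 had no entry). The E-box CACGTG, which reads the same on both strands, was present in 9 of the 41 genes (22.0%), against 977 of 7975 tested genes with a window (12.3%) and 8.09% of all 27025 genes in the promoter set. Of the 9 sites, 7 lay after the start site and 2 before it. The related letters CACGCG, or CGCGTG on the other strand, were searched after the data had been seen and were in 13 of the 41 genes (31.7%), against 20.3% of the tested genes. The first 4 sequences below show CACGTG sites in genes named in the results, and the last 2 show the CACGCG sites of Bysl and Nop10, members called lower in effector cells. Each runs 5′ to 3′ on the strand of its gene, with the motif in capitals.

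Nop2: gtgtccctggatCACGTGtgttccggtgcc
Grwd1: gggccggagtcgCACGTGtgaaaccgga
Mybbp1a: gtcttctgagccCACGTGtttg
Tsr1: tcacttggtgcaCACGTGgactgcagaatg
Bysl: actccagaccttCACGCGaacggcggcccc
Nop10: aggttgttggcgCACGCGattgaagcggcg

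The Nop2 sequence is chr6:125131811-125131840 on the plus strand, and its motif begins 60 bases before the start site. The Grwd1 sequence is chr7:45830740-45830767 on the minus strand, that of Mybbp1a is chr11:72441355-72441376 on the plus strand, and that of Tsr1 is chr11:74898092-74898121 on the plus strand. In these 3 genes the motif begins 35, 41 and 25 bases after the start site. The Bysl sequence is chr17:47611604-47611633 on the minus strand, 129 bases before the start, and the Nop10 sequence is chr2:112261938-112261967 on the plus strand, 25 bases after it. Of the 7 members called lower between states, described next, 6 had a window; CACGTG was in 0 of these 6 and CACGCG in 2.

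The libraries held 1658073 to 5756903 expected counts, with a median of 3154386.5. Levels below are CPM, the count of a gene relative to its library total scaled by TMM, with the SD over 3 libraries. Foxp3, the lineage factor of Treg, was at 211 to 479 CPM and Cd4 at 502 to 879 CPM in all libraries. Of the myeloid genes, S100a8 and S100a9 were at 0 in 18 and 17 libraries, Cd14 in 16 and Csf1r in 12. Fcgr3 was at 0 in 7 libraries, Lyz2 in 6 (up to 7.30 CPM) and Itgam in 0 (up to 3.64 CPM). The summed CPM of 7 B cell markers was 10.2 to 132 per library. That of 8 CD8 and NK markers was 44.1 to 112 and that of 8 myeloid markers 64.1 to 104, most of it Cst3 (58.4 to 97.8 CPM). Rn45s, the entry named for the ribosomal RNA precursor, made up 10.9 to 16.4% of the counts. It was not called between states (log2 changes -0.22 in fl/fl, -0.20 in fl/+ and -0.09 in +/+). Reads of precursor and of mature ribosomal RNA cannot be told apart in this entry.

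The deposited FPKM values, which allow for gene length, order the members by level. Npm1 was highest with a mean of 745 FPKM over the 18 libraries, then Nop10 at 228, Myc at 90.9, Fbl at 90.1 and Nop56 at 89.4 FPKM. Utp20 (3.76 FPKM), a small subunit factor, and Noc3l (4.22 FPKM), a large subunit factor, were lowest. The ranges of Myc (52.7 to 119 FPKM), Fbl (67.1 to 116 FPKM) and Nop56 (71.1 to 113 FPKM) overlapped over the libraries.

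Effector cells held less Myc RNA than resting cells in fl/+ and +/+. In fl/fl cells Myc was at 168, 217 and 256 CPM in effector libraries, against 179, 231 and 263 CPM in resting libraries. In fl/+ it was at 142, 197 and 162 CPM in effector libraries, against 278, 237 and 260 CPM in resting ones. In +/+ it was at 152, 121 and 177 CPM in effector libraries, against 282, 274 and 211 CPM in resting ones. The 2 states overlapped in fl/fl and stood apart in fl/+ and +/+, where each effector library lay below each resting one. Myc fell by 0.64 on the log2 scale in fl/+ (SE 0.17, adjusted p = 0.0132, edgeR quasi-likelihood test with Benjamini-Hochberg adjustment over all genes tested) and by 0.77 in +/+ (SE 0.17, adjusted p = 0.00418), while its change in fl/fl was -0.08 (SE 0.17, adjusted p = 0.852). Within batches the change was -0.09, -0.09 and -0.04 in fl/fl, -0.97, -0.27 and -0.68 in fl/+, and -0.89, -1.18 and -0.25 in +/+. The state change of Myc in fl/fl less that in +/+ was 0.68 (SE 0.24, adjusted p = 0.428) and was not called, although with no filter on low counts it was (0.69, adjusted p = 0.00681). The call in fl/+ was lost without fl/+ effector replicate 1 (adjusted p = 0.083), fl/+ effector replicate 3 (0.0582) or fl/+ resting replicate 1 (0.0704); the fl/fl change was 0.08 without fl/fl effector replicate 1 and 0.05 without fl/fl resting replicate 3. In bulk RNA, fewer cells of a type and less RNA per cell cannot be told apart.

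**Figure D1:**
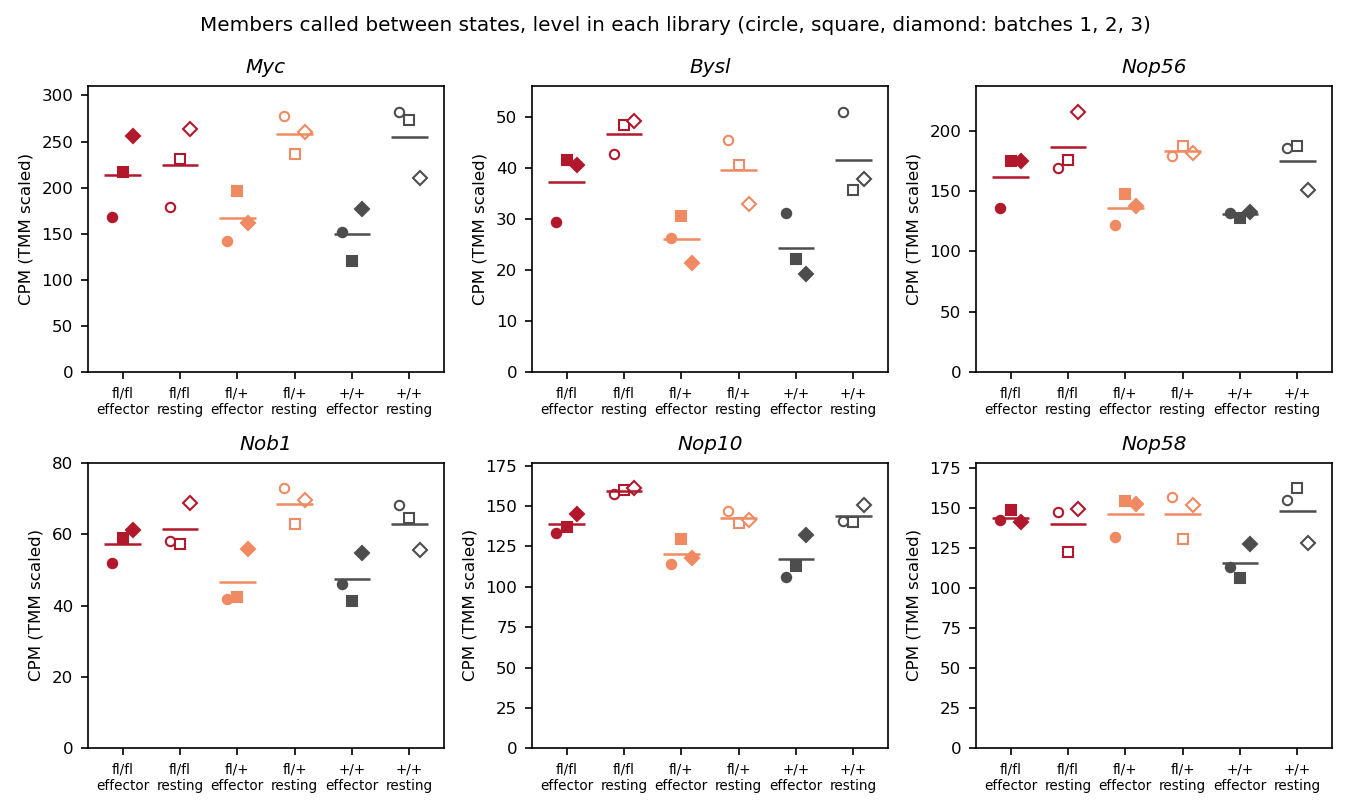
Level of 6 members in each library, as CPM scaled by TMM on an axis from 0, for effector (filled) and resting (open) cells of fl/fl, fl/+ and +/+; circles, squares and diamonds are batches 1, 2 and 3 and lines are means of 3. Myc, Bysl, Nop56 and Nob1 lie lower in all effector than in all resting libraries of fl/+; in +/+ Nob1 was not called (adjusted p = 0.0596), but was with the replicate block (0.0355).

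Across the 46 genes, edgeR called 0 between states in fl/fl, 4 in fl/+ and 6 in +/+, all lower in effector cells. In fl/fl 3 members, all lower, had an unadjusted p under 0.05, against 19.1% of all genes in either direction, and DESeq2 called 0. The background in fl/fl was 6.34% of all tested genes called in either direction and 1.33% called lower. In fl/+ the 4 of 46 (Nob1, Myc, Nop56 and Bysl) compare with 16.3% of all genes called and 6.58% called lower. In +/+ the 6 of 46 (Myc, Bysl, Nop56, Nop10, Nop58 and Npm3) compare with 16% called and 6.5% called lower. Myc, Nop56 and Bysl were in both lists, which is 3 of the 4 in fl/+ and 3 of the 6 in +/+. The 2 comparisons share no library, but they share the estimate of the spread. How many of all genes were called lower in both is not given here. The count in fl/+ was thus close to the background of genes called lower and that in +/+ above it, a difference that was not tested. No member was called higher by the fit given here, while Polr1c was called higher in +/+ under 11 of 26 alternatives. The count in fl/+ was 0 without fl/+ effector replicate 1, 2 without fl/+ effector replicate 3, 1 without fl/+ resting replicate 1 and 2 without fl/+ resting replicate 2. The count in +/+ was 2 without +/+ effector replicate 1 or 2, 1 without +/+ resting replicate 1 and 3 without +/+ resting replicate 2, and in fl/fl it was 1 without fl/fl effector replicate 2. With the replicate block, which uses the batch number, 8 members were called in fl/+, all lower, and 11 in +/+, 10 lower and Polr1c higher. The share of all genes called with the block is not given here, so these counts have no background beside them.

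Below the threshold, the members leaned to one side in fl/+ and +/+. The log2 change between states was below 0 for 28 of 46 members in fl/fl, 38 in fl/+ and 41 in +/+, that is 60.9%, 82.6% and 89.1%, against 51.8%, 50.9% and 51.5% of all genes tested. The members' median was -0.06 in fl/fl, -0.18 in fl/+ and -0.26 in +/+, against -0.01 over all genes in each. All 3 effector libraries lay below all 3 resting ones for 3 members in fl/fl (9.98% of all genes), 15 in fl/+ (16.1%) and 18 in +/+ (15.7%). In all 3 batches the effector library was the lower one for 11 members in fl/fl (21.7% of all genes), 20 in fl/+ (25.9%) and 27 in +/+ (25.2%), and the higher one for 7 in fl/fl (20.8%), 2 in fl/+ (26.6%) and 2 in +/+ (25.1%). These are counts over genes of one programme in the same libraries and are given as a description. The 7 members called between states are all protein-coding, with positions by the RefSeq annotation of GRCm38.p6. They lie at chr15:61985341-61990361 (Myc), chr2:130274367-130279313 (Nop56), chr1:59684961-59711510 (Nop58), chr2:112261926-112262898 (Nop10), chr17:47599331-47611492 (Bysl), chr8:107412489-107425038 (Nob1) and chr19:45747734-45749565 (Npm3).

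**Figure D2:**
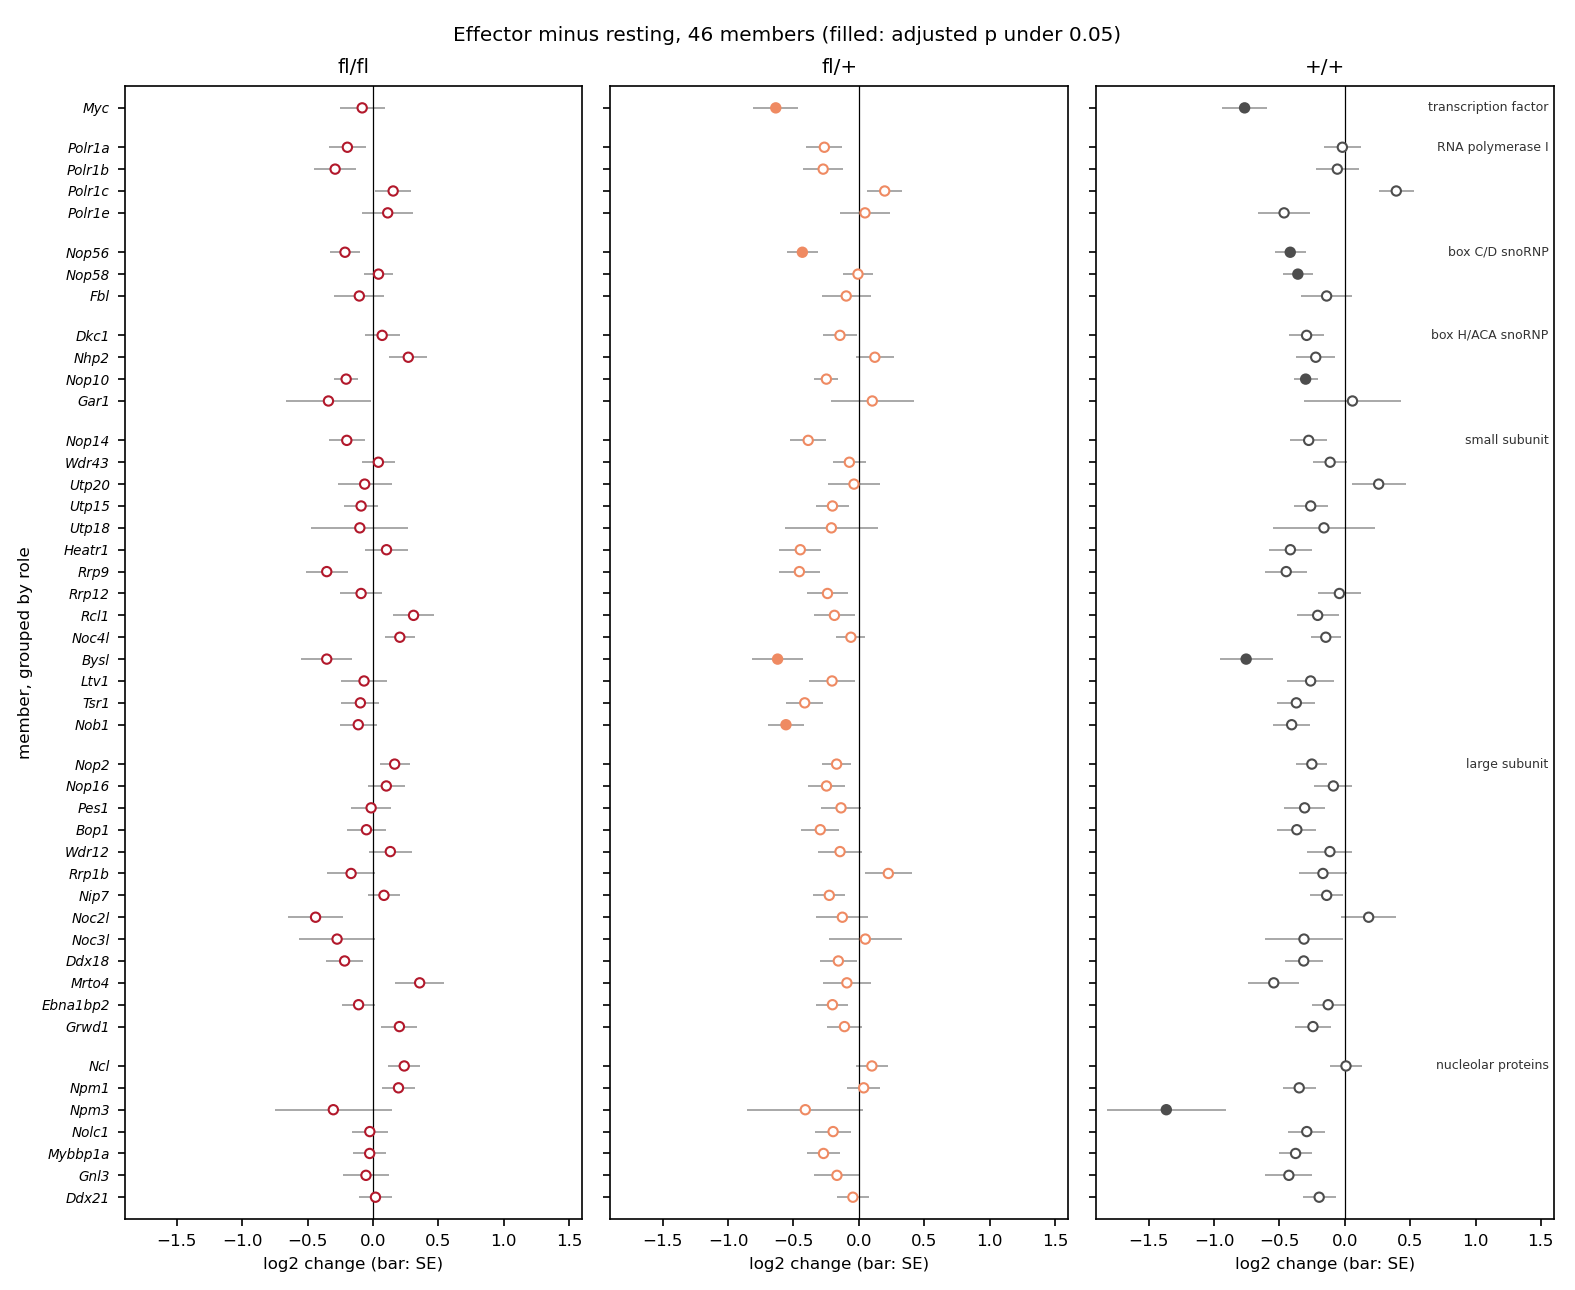
Log2 change, effector minus resting, with its SE for the 46 members grouped by role (vertical axis) in fl/fl, fl/+ and +/+; filled points have an adjusted p under 0.05. Points lie on both sides of 0 in fl/fl (28 of 46 below) and mostly below 0 in +/+ (41 of 46).

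**Figure D3:**
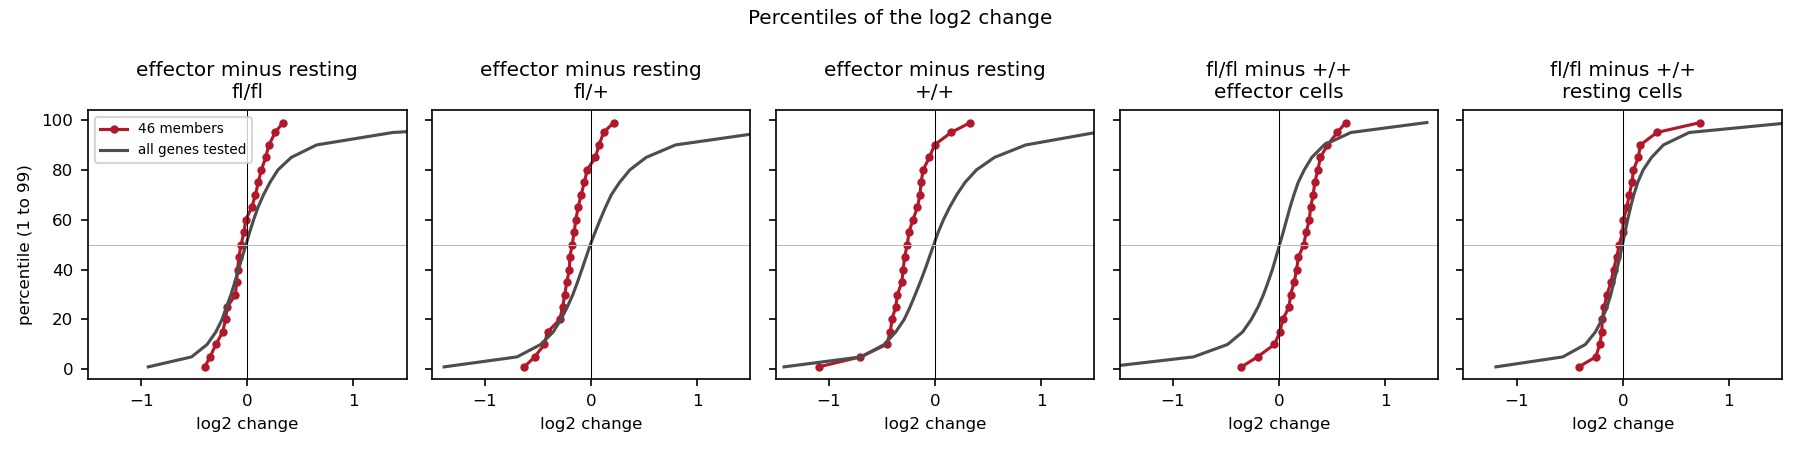
Percentiles (1 to 99) of the log2 change for the 46 members (red) and all genes tested (grey) in 5 comparisons. The members' median is -0.26 for effector minus resting in +/+ and 0.23 for fl/fl minus +/+ in effector cells, against -0.01 and 0.01 for all genes.

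Among the 4 RNA polymerase I genes 0 were called between states, by edgeR in each genotype. Polr1c, a subunit that RNA polymerases I and III share, had a change above 0 in all 3 genotypes. It was at 43.6, 41.9 and 39.9 CPM in fl/fl effector libraries, against 44.4, 37.2 and 31.6 CPM in fl/fl resting ones. In +/+ it was at 55.6, 59.2 and 55.8 CPM in effector libraries, against 44.9, 40.5 and 43.8 CPM in resting ones. The states overlapped in fl/fl and not in +/+, where the effector libraries were the higher ones. Its change was 0.15 in fl/fl (SE 0.14), 0.20 in fl/+ (SE 0.13) and 0.39 in +/+ (SE 0.14, adjusted p = 0.0534), and it was called higher in +/+ under 11 of 26 alternative settings, among them the replicate block (0.0328), limma on log2(FPKM + 1) (0.0178) and edgeR with DESeq2 size factors (0.0403). Polr1a, the largest subunit, had -0.20, -0.26 and -0.02 in fl/fl, fl/+ and +/+, and Polr1b, the other catalytic subunit, -0.29, -0.27 and -0.06. Polr1e, a subunit that polymerase III lacks, had 0.11, 0.05 and -0.46, and none of these passed the test.

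The box C/D snoRNP proteins methylate ribosomal RNA along guide RNAs. Their core protein Nop56 was at 136, 175 and 175 CPM in fl/fl effector libraries, against 169, 175 and 216 CPM in fl/fl resting ones. In fl/+ it was at 122, 147 and 138 CPM in effector libraries, against 179, 187 and 182 CPM in resting ones, and in +/+ at 132, 128 and 133 CPM, against 185, 188 and 151 CPM. Both fl/+ and +/+ effector groups lay wholly below their resting groups, and the fl/fl groups overlapped. Nop56 fell by 0.43 in fl/+ (SE 0.12, adjusted p = 0.0144) and by 0.42 in +/+ (SE 0.12, adjusted p = 0.0202), and its change in fl/fl was -0.21 (SE 0.12, adjusted p = 0.349). The call was lost without fl/+ effector replicate 1 or fl/+ resting replicate 2 in fl/+, and without effector replicate 1 or 2 or resting replicate 1 or 2 in +/+. Its partner Nop58 averaged 116 ± 10.9 CPM in +/+ effector and 148 ± 18.04 CPM in +/+ resting cells, a fall of 0.36 (SE 0.12, adjusted p = 0.0378), with within-batch changes of -0.45, -0.61 and -0.00. This call was lost in 10 of 26 alternatives: both FPKM fits (0.144 and 0.147), only the groups compared (0.0921), and leaving out +/+ effector replicate 1 or 2, +/+ resting replicate 1 or 2, fl/fl effector replicate 3, fl/+ effector replicate 2 or fl/+ resting replicate 3. Its change was 0.04 in fl/fl (SE 0.11) and -0.01 in fl/+ (SE 0.11). Fbl, the methyltransferase, had -0.10, -0.10 and -0.14 (SE 0.19 each).

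In the box H/ACA snoRNP, which makes pseudouridine in ribosomal RNA, Nop10 was the member called. It was at 134, 137 and 145 CPM in fl/fl effector libraries, against 158, 160 and 161 CPM in fl/fl resting ones. In +/+ it was at 106, 113 and 132 CPM in effector libraries, against 141, 140 and 150 CPM in resting ones. The effector libraries were below the resting ones in both genotypes, and also in fl/+ (120 ± 8.1 CPM in effector and 143 ± 3.9 CPM in resting cells). Nop10 fell by 0.30 in +/+ (SE 0.09, adjusted p = 0.0316), and was at -0.25 in fl/+ (SE 0.09, adjusted p = 0.0699; 0.0478 with the replicate block) and -0.20 in fl/fl (SE 0.09, adjusted p = 0.221). The call in +/+ was lost in 9 of 26 alternatives, which were no filter on low counts (0.139), both FPKM fits (0.128 and 0.129), only the groups compared (0.128) and leaving out any +/+ library but effector replicate 3. The synthase Dkc1 had 0.07, -0.14 and -0.29 in fl/fl, fl/+ and +/+, and Nhp2 0.27, 0.12 and -0.22, none of them called. Gar1, with 4.23 to 16.2 CPM one of the lowest members, had changes of -0.34, 0.10 and 0.06 with SE of 0.33, 0.32 and 0.37.

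Of 14 small subunit factors, 0 were called in fl/fl, 2 in fl/+ and 1 in +/+, and 10, 14 and 13 of them had a change below 0. In the same order 1.33%, 6.58% and 6.5% of all genes were called lower, and 51.8%, 50.9% and 51.5% were below 0. Bysl, needed for assembly of the small subunit precursor, was at 29.5, 41.6 and 40.5 CPM in fl/fl effector libraries, against 42.7, 48.4 and 49.3 CPM in fl/fl resting ones. In fl/+ it was at 26.3, 30.6 and 21.3 CPM in effector libraries, against 45.5, 40.5 and 32.9 CPM in resting ones, and in +/+ at 31.3, 22.2 and 19.2 CPM, against 51.0, 35.7 and 37.9 CPM. Effector libraries lay below resting ones in all 3 genotypes. Bysl fell by 0.62 in fl/+ (SE 0.20, adjusted p = 0.0345) and by 0.75 in +/+ (SE 0.20, adjusted p = 0.0138), and had -0.35 in fl/fl (SE 0.20, adjusted p = 0.350). The call in fl/+ was lost with both FPKM fits (0.119 and 0.12) and without fl/+ effector replicate 1 or 3 or fl/+ resting replicate 1 or 2, and that in +/+ without +/+ effector replicate 2 or 3 or +/+ resting replicate 1. Its annotated exons share 361 of 3854 bases with Ccnd3, and the expected count of Bysl was not whole in any library; with no strand setting stated, reads of the 2 genes cannot be told apart there. Ccnd3 had -0.09, -0.25 and -0.24 in fl/fl, fl/+ and +/+ and was not called.

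Nob1, the nuclease of the last cut in small subunit RNA, averaged 46.7 ± 8.0 CPM in fl/+ effector and 68.4 ± 5.0 CPM in fl/+ resting cells with no overlap. It fell by 0.56 (SE 0.14, adjusted p = 0.00809; not called without fl/+ effector replicate 1 or fl/+ resting replicate 1), and was at -0.11 in fl/fl (SE 0.14) and -0.41 in +/+ (SE 0.14, adjusted p = 0.0596; 0.0355 with the replicate block). Rrp9, a protein of the U3 snoRNP, had -0.35, -0.45 and -0.45 in fl/fl, fl/+ and +/+ (adjusted p = 0.225, 0.0518 and 0.0646), and was called with the replicate block in fl/+ (0.0122) and +/+ (0.0196). Heatr1 (0.10, -0.45 and -0.42), Tsr1 (-0.10, -0.41 and -0.37) and Nop14 (-0.20, -0.39 and -0.28) were not called; with the replicate block Heatr1 (0.045) and Tsr1 (0.0315) were called in fl/+. Of the exonic bases of Tsr1, 34.2% are shared with Srr, with the same limit as for Bysl. Utp20, the highest change of the group in +/+, was at 0.26 (SE 0.21).

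None of the 13 large subunit factors was called between states by edgeR. Mrto4, related to a yeast factor of the ribosomal stalk, was at 26.8, 34.2 and 29.6 CPM in fl/fl effector libraries, against 25.4, 21.3 and 23.6 CPM in fl/fl resting ones. In +/+ it was at 21.6, 16.9 and 18.9 CPM in effector libraries, against 32.2, 28.4 and 23.7 CPM in resting ones. The fl/fl effector libraries were above and the +/+ effector libraries below the resting ones of their genotype, with changes of 0.36 in fl/fl (SE 0.19, adjusted p = 0.320) and -0.54 in +/+ (SE 0.19, adjusted p = 0.062; called lower in 3 of 26 alternatives). The PeBoW complex, which acts in large subunit maturation, had changes in fl/fl, fl/+ and +/+ of -0.01, -0.14 and -0.31 for Pes1, -0.05, -0.30 and -0.37 for Bop1 and 0.13, -0.14 and -0.11 for Wdr12. The methyltransferase Nop2 had 0.17, -0.17 and -0.25 (SE 0.11, 0.11 and 0.12). Noc2l was at -0.44 in fl/fl (SE 0.21, adjusted p = 0.255) and 0.18 in +/+ (SE 0.21). Of its exonic bases 20.9% are shared with Samd11, with the same limit as for Bysl. Among the 46 members, 8 share exonic bases with another counted gene.

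Among 7 nucleolar proteins only Npm3, a low member of the nucleoplasmin family, was called, in +/+. It was at 7.18, 12.2 and 6.65 CPM in +/+ effector libraries, against 39.1, 14.2 and 9.08 CPM in +/+ resting ones. The groups overlapped, and +/+ resting replicate 1 stood far above the rest: the change of -1.37 (SE 0.45, adjusted p = 0.0458) was -0.48 with an adjusted p of 0.526 without that library. It was called in 14 of 26 alternatives. Npm1, a histone chaperone and the most abundant member, was at 911, 1006 and 1285 CPM in fl/fl effector libraries, against 895, 843 and 1052 CPM in fl/fl resting ones, and in +/+ at 797, 757 and 977 CPM, against 1086, 1146 and 991 CPM. The states overlapped in fl/fl, and in +/+ the effector libraries were lower, with changes of 0.20 in fl/fl (SE 0.12, adjusted p = 0.429) and -0.35 in +/+ (SE 0.13, adjusted p = 0.0642; 0.0152 with the replicate block). Mybbp1a, a nucleolar binding partner of Myb, had -0.02, -0.27 and -0.38 in fl/fl, fl/+ and +/+ (0.0284 with the replicate block in +/+). Ncl, which binds ribosomal RNA precursor, had 0.24, 0.10 and 0.01, and Gnl3, Nolc1 and Ddx21 were not called in any genotype.

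Between genotypes, edgeR called 0 of the 46 members in any of the 6 comparisons, and DESeq2 called 0 as well. Other settings called up to 2 members in fl/fl against +/+ effector cells and 1 in fl/+ against +/+ resting cells, with the shares of all genes not given here. In effector cells 15 members had an unadjusted p under 0.05 for fl/fl against +/+, 14 of them higher in fl/fl, against 17.3% of all genes at such a p in either direction and 8.72% higher; 2.81% of all genes were called. For fl/fl against fl/+ 4 members, all higher, had such a p, against 11.8% of all genes, with 0.677% called. For fl/+ against +/+ there were 2 members, both higher, against 5.47%, with 0.00941% called. In resting cells 1 member had such a p for fl/fl against +/+ (8.21% of all genes, 0.696% called), 0 for fl/fl against fl/+ (4.83%, 0.0282% called) and 3 for fl/+ against +/+ (6.29%, 0.0847% called).

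The members were nonetheless placed to one side between genotypes in effector cells. For fl/fl against +/+, 39 of the 46 had a change above 0, with a median of 0.23, against 51.0% and 0.01 over all genes. For fl/+ against +/+ 36 were above 0 (49.5% of all genes), and for fl/fl against fl/+ 33 (51.2%). In resting cells 21 were above 0 for fl/fl against +/+ (49.35% of all genes), with a median of -0.03. There 30 were above 0 for fl/+ against +/+ (48.2%) and 13 for fl/fl against fl/+ (51.2%). The fl/fl effector libraries lay above all +/+ effector libraries for 12 of 46 members, against 10.3% of all genes, and in all 3 batches fl/fl was the higher one for 20, against 20.7% of all genes. The +/+ effector libraries also enter the state comparison in +/+, which thus shares these 3 libraries with the effector comparisons against +/+. The mean log2 CPM over the members was 5.99 ± 0.07 in fl/fl effector, 6.02 ± 0.10 in fl/fl resting, 5.91 ± 0.11 in fl/+ effector, 6.09 ± 0.06 in fl/+ resting, 5.78 ± 0.02 in +/+ effector and 6.04 ± 0.07 in +/+ resting cells (SD, n = 3 each). Lowest were the +/+ effector libraries at 5.77 to 5.81, with fl/+ effector replicate 1 at 5.80 among them.

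Nop2 had the smallest p of the members in fl/fl against +/+ effector cells. It was at 87.9, 79.2 and 82.2 CPM in fl/fl effector libraries, against 58.3, 61.8 and 66.9 CPM in +/+ effector ones, with no overlap. The change was 0.42 (SE 0.12, adjusted p = 0.0561; 0.0206 with the replicate block). Mrto4, whose libraries did not overlap either, had 0.63 (SE 0.19, adjusted p = 0.078), and Polr1c, lower in all fl/fl libraries, had -0.43 (SE 0.14, adjusted p = 0.0855; 0.0467 with the replicate block). Myc, at 214 ± 44.3 CPM in fl/fl effector and 150 ± 28.3 CPM in +/+ effector cells, had 0.49 (SE 0.17, adjusted p = 0.134; 0.00181 with no filter on low counts, and 0.0372 without fl/fl effector replicate 1, where the change was 0.65), and the groups overlapped, with 168 CPM in the lowest fl/fl and 177 CPM in the highest +/+ library. Bysl had 0.56 (SE 0.21, adjusted p = 0.153), Nop58 0.32 (SE 0.12, adjusted p = 0.147) and Nop10 0.24 (SE 0.09, adjusted p = 0.163). In resting cells the largest change was that of Gar1, at 12.8 CPM in fl/fl and 6.40 CPM in +/+ cells, with 1.03 (SE 0.34, adjusted p = 0.272) and libraries that did not overlap.

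**Figure D4:**
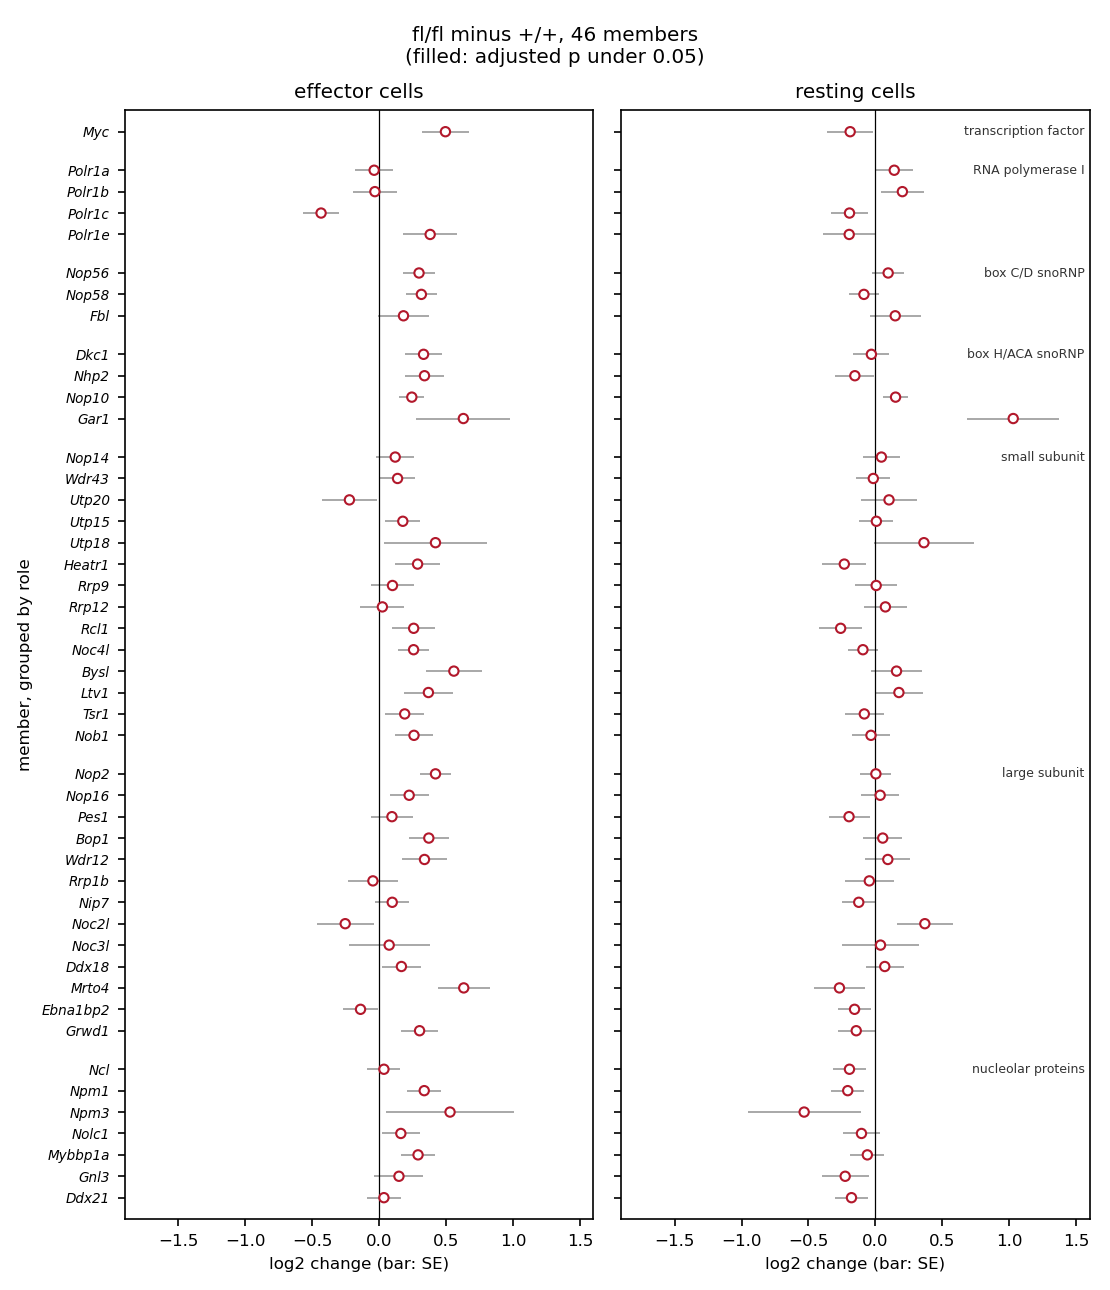
Log2 change, fl/fl minus +/+, with its SE for the 46 members grouped by role, in effector cells and in resting cells; no point is filled, since 0 members had an adjusted p under 0.05. In effector cells 39 of 46 lie above 0 and in resting cells 21 of 46.

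Whether the state change itself differed between genotypes was tested for each member. For fl/fl less +/+ edgeR called 0 members, and DESeq2 called 0, with 11 members at an unadjusted p under 0.05, of which 10 were above 0, against 8.97% of all genes at such a p in either direction and 4.36% above 0; 0% of all genes were called. For fl/fl less fl/+ 0 were called with 4 at such a p (5.89% of all genes, 0.00941% called), and for fl/+ less +/+ 0 with 2 (3.23% of all genes, 0.0188% called). In fl/fl less +/+, 38 of 46 members were above 0 with a median of 0.23, against 50.6% and 0.01 over all genes. In fl/fl less fl/+ 37 were above 0 (50.1% of all genes) with a median of 0.14. In fl/+ less +/+ 29 were above 0 (50.2% of all genes) with a median of 0.06. The 3 smallest p-values were those of Mrto4 (0.90, SE 0.27, adjusted p = 0.351), Npm1 (0.54, SE 0.18, adjusted p = 0.393) and Myc (0.68), and the low gene Npm3 had the largest difference (1.06, SE 0.64, adjusted p = 0.659).

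Other genes of the same pathway were counted in the same way. Of all genes, 1.33%, 6.58% and 6.5% were called lower in fl/fl, fl/+ and +/+, and 51.8%, 50.9% and 51.5% were below 0. In the same order, 533, 1033 and 1009 of all 10630 genes were called higher. Of 43 other small subunit factors 0 were called in fl/fl, 2 lower in fl/+, and 1 higher and 2 lower in +/+, and 30, 36 and 32 had a change below 0. Of 48 other large subunit factors 1 was called lower in fl/fl, 3 lower in fl/+, and 1 higher and 4 lower in +/+, among the last Ppan (-0.64, SE 0.13) and Surf6 (-0.49, SE 0.13), while Ddx24 rose by 0.46 (SE 0.10). Of 12 polymerase I cofactors 0, 1 and 2 were called lower in fl/fl, fl/+ and +/+: Twistnb, a polymerase I subunit, fell by 0.51 in fl/+ (SE 0.13) and 0.52 in +/+ (SE 0.14), and Rrn3, the initiation factor of polymerase I, by 0.47 in +/+ (SE 0.11). Of 14 RNA polymerase III genes, 9, 14 and 13 had a change below 0. The list holds Brf1, Brf2, Bdp1 and Maf1, which are not subunits, beside the Polr3 genes. Polr3b fell by 0.55 in fl/+ (SE 0.12) and 0.50 in +/+ (SE 0.13). Of 14 exosome genes 0, 2 and 1 were called lower.

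In the network around Myc, the antagonists of the Mxd family compete for Max. Mxd1 averaged 71.4 CPM in fl/fl effector and 99.9 CPM in fl/fl resting cells, and fell in fl/+ by 1.23 (SE 0.17, adjusted p = 8.04e-05) and in +/+ by 0.91 (SE 0.18, adjusted p = 0.00144). Mxd3, known from dividing cells, rose by 4.27 in fl/fl (SE 0.75, adjusted p = 0.00201) and 2.45 in fl/+ (SE 0.65, adjusted p = 0.0125), with 8.74 CPM in fl/fl effector and 0.40 CPM in fl/fl resting cells. Its effector and resting means were 6.37 and 1.24 CPM in fl/+, and 5.45 and 1.75 CPM in +/+. Mxd3 is a low gene, at 0 in 2 libraries, and its changes have wide errors. Mlxip, a relative of Myc that pairs with Mlx, was higher in fl/fl than in +/+ cells of both states, by 1.01 in effector (SE 0.27, adjusted p = 0.0493) and 1.17 in resting cells (SE 0.26, adjusted p = 0.0424). Of 17 nucleotide synthesis genes 0, 2 and 2 were called lower in fl/fl, fl/+ and +/+, with Impdh1 at -0.80 in fl/+ (SE 0.16) and -0.86 in +/+ (SE 0.16). Of 17 translation factors 1 was called higher in each genotype, Eif4ebp1, an inhibitor of cap-dependent initiation (0.77 in fl/fl, 0.68 in fl/+ and 0.78 in +/+), and 4 were called lower in +/+. Beside these counts, 533, 1033 and 1009 of all 10630 genes were called higher in fl/fl, fl/+ and +/+, and 1.33%, 6.58% and 6.5% lower.

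Genes of cell division moved the other way between states. Of all 10630 genes tested, 533, 1033 and 1009 were called higher in effector cells of fl/fl, fl/+ and +/+. Of 20 proliferation genes 19, 18 and 14 were called higher in effector cells of fl/fl, fl/+ and +/+, with medians of 2.58, 2.07 and 1.23, and their summed level averaged 1540 ± 197 CPM in fl/fl effector, 532 ± 83.3 in fl/fl resting, 1217 ± 138 in fl/+ effector, 540 ± 40.5 in fl/+ resting, 1007 ± 229 in +/+ effector and 577 ± 36.3 CPM in +/+ resting cells. Markers of the resting state (8 genes such as Lef1) summed to 3025 ± 554 CPM in fl/fl effector and 1576 ± 470 CPM in +/+ effector cells, and 7 of 8 were called higher in fl/fl. Markers of the effector state (9 genes such as Icos) summed to 720 ± 384 CPM in fl/fl effector and 1595 ± 383 CPM in +/+ effector cells, and 4 of 9 were called lower in fl/fl. Of the proliferation genes 3 were called higher in fl/fl than in +/+ effector cells. In that comparison 124 of all 10630 genes were called higher in fl/fl and 175 lower. The part of these 3 lists in the members' values was not tested.

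**Figure D5:**
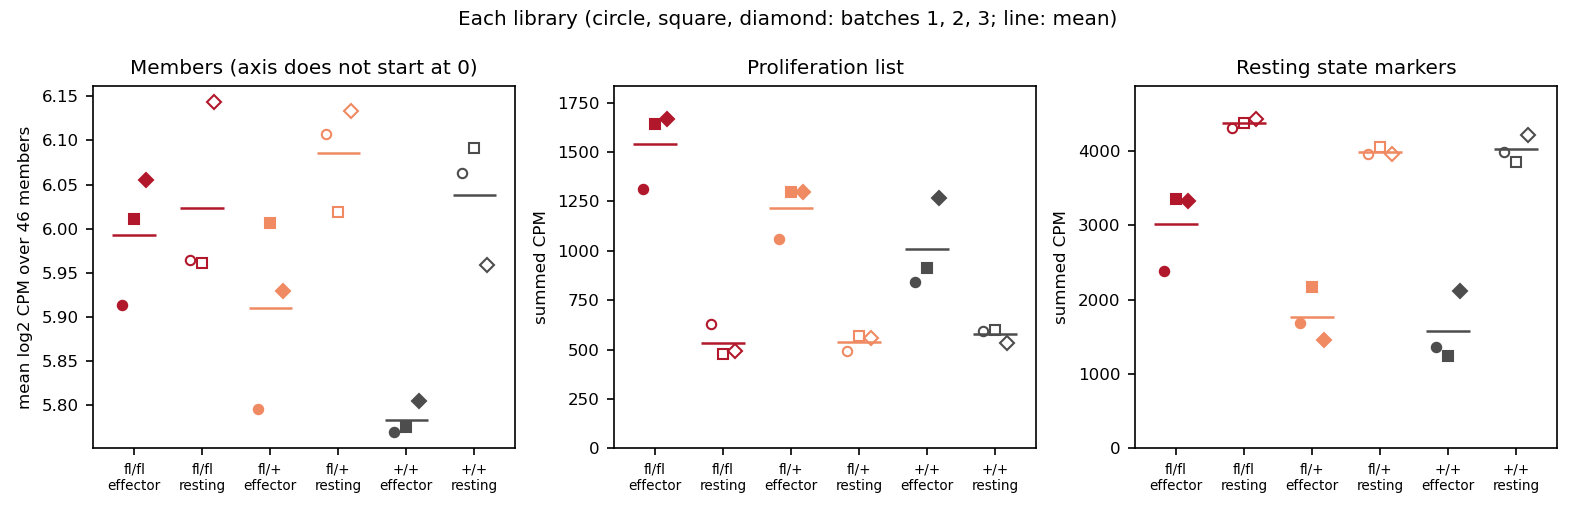
Per library, the mean log2 CPM over the 46 members (axis not from 0), the summed CPM of 20 proliferation genes and that of 8 resting state markers (axes from 0), for effector (filled) and resting (open) cells; circles, squares and diamonds are batches 1, 2 and 3, and lines are means. The +/+ effector libraries (5.77 to 5.81) and fl/+ effector replicate 1 (5.80) are lowest in the members, and resting state markers are higher in fl/fl effector than in +/+ effector libraries (means 3025 and 1576 CPM).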

How the data were processed

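The authors deposited RSEM expected counts per gene and library, and FPKM values, for 18 libraries. Per the submitters' processing notes the tools were STAR 2.6.0, RSEM 1.2.8 and bcl2fastq 2.17.1.14 with mm10; no annotation or strand setting is given in the sources used here. Of the nonzero deposited expected counts 29.4% were not whole (tolerance 0.005), and all were rounded. Totals and TMM factors (0.9394 to 1.063) set CPM. In R 4.3.3, edgeR 4.0.16 was run with filterByExpr by group, which kept 10630 genes, 6 group means and the quasi-likelihood F test; the threshold was a Benjamini-Hochberg adjusted p of 0.05 over all genes. The scripts were tested on simulated data. Alternatives were DESeq2 1.42.0, limma 3.58.1 on log2(FPKM + 1) or log2(FPKM + 0.1) of genes with a mean of at least 1 FPKM, DESeq2 size factors in edgeR, no filter, the replicate block, no Rn45s, only the groups compared, and leaving out each library.

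The replicate number stands in the sample titles and is called a batch here. Whether it pairs the samples is not known from the titles. The fit given here leaves this number out, and the replicate block includes it. With the block more members were called between states in fl/+ and +/+ than by the fit given here, with no share of all genes given beside them. Same-numbered libraries of one genotype deviated together (mean correlation 0.21 over 9 pairs, 0.14 to 0.35); across genotypes the mean over 36 pairs was 0.07, and 12 exceeded 0.1. Nothing in the labels ties a library to its own animal, so p-values measure the spread between these samples, which may be technical. The members and the other gene lists (17 lists, 242 of 257 genes tested) were chosen with earlier results of these data known. All members may be named; from each list, at most the 3 called genes with the largest change in each direction, beside Rn45s. The level of the targeted gene is not reported here. Promoter windows and gene positions are from RefSeq GRCm38.p6 and exons from GENCODE on GRCm38, the same build as mm10.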

Additional observations from a re-analysis of the deposited data

Results flagged for a closer look

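In 9 cases the effector library was the higher one in all 3 batches of one genotype and the lower one in all 3 batches of another. The test of the difference passed in none of them. Of all genes, 20.8% to 26.6% were higher and 21.7% to 25.9% lower in all 3 batches of a genotype. The number of all genes with such opposite directions is not given here, so the 9 cases have no background beside them. For the state change in fl/fl less that in +/+, the difference was 0.49 for Nhp2, 0.42 for Nop2, 0.90 for Mrto4, 0.45 for Grwd1 and 0.54 for Npm1 (edgeR adjusted p = 0.351 to 0.513). For fl/fl less fl/+ it was 0.50 for Rcl1, 0.34 for Nop2 and 0.31 for Grwd1 (adjusted p = 0.839 to 0.909). For fl/+ less +/+ it was 0.39 for Rrp1b (adjusted p = 0.9999).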

How the results depend on the processing

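The number of members called between states in fl/+ (4) was 7 with no filter on low counts, 8 with the replicate block and 7 with only the groups compared, and 0 to 6 when 1 library was left out. In +/+ (6) it was 11 with the replicate block and 1 to 8 with 1 library left out, and in fl/fl (0) 0 to 1. For fl/fl against +/+ effector cells (0) it was 2 with no filter (Myc and Npm1), 2 with the replicate block (Nop2 and Polr1c) and 0 to 2 with 1 library left out. With no filter 1 member was called for fl/+ against +/+ resting cells and 2 (Myc and Npm1) for the state change in fl/fl less that in +/+. The shares of all genes called under these alternatives are not given here. The Myc change in fl/fl was 0.01507 with limma on log2(FPKM + 1) and 0.01518 on log2(FPKM + 0.1), and -0.2183 to 0.07947 with 1 library left out; the cause was not tested. Myc was called lower in +/+ under all 26 alternatives (adjusted p = 9.43e-09 to 0.0338). With FPKM, 3 members were called in fl/+, all lower, and 4 in +/+, 3 lower and Polr1c higher. The count below 0 between states was 19 to 29 in fl/fl, 32 to 41 in fl/+ and 37 to 42 in +/+ over the 26 alternatives. With totals down to 1658073 counts, changes of low members such as Gar1 and Npm3 have wide errors.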
